A study of Homo sapiens with 6 samples.

Results

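A set of 10 genes of heme breakdown and iron handling was followed across 3 states of 22RV1 cells, an established human line of castration-resistant prostate cancer. They were the 10 rows of the deposited expression table, out of 24872, whose symbol was HMOX1, HMOX2, BLVRA, BLVRB, FTH1, FTL, NCOA4, TFRC, SLC40A1 or IREB2. The set was chosen by measured values of these libraries: HMOX1 stood among the genes with the largest rise in both treated groups, and TFRC among those that came nearest to passing as a rise in OE. The other genes were added as the same pathway. The changes of the 10 genes are therefore given as descriptions, with standard errors but without p-values.

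RNA was sequenced on day 2 in 6 libraries. Of these, 2 were labelled MAGI2-AS3 overexpression, after a long noncoding RNA (OE), 2 miR-106a-5p mimics (mimics) and 2 NC, the control. The protocol speaks of infection with overexpression plasmids for either RNA, which leaves it unclear how the microRNA reached the cells, and what NC cells received is not described. The level of MAGI2-AS3 was not analysed here, and the OE label is taken as given. All groups share the parental 22RV1 line, and nothing in the labels says that replicates were separate cultures. Errors therefore measure no more than the spread between libraries. They are moderated by limma: the spread of the 3 groups is pooled, and each gene's variance is drawn toward a trend over all tested rows. The values are FPKM, in which fragments are divided by the length of the transcript and the size of the library, and they hold no read counts.

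Heme oxygenases open the heme ring and release iron, carbon monoxide and biliverdin, which biliverdin reductase A (BLVRA) converts to bilirubin. The freed iron is stored in ferritin, a shell of heavy (FTH1) and light (FTL) chains, or leaves the cell through ferroportin (SLC40A1). Transferrin receptor (TFRC) brings iron in. When iron is scarce, iron regulatory proteins bind hairpins in mRNAs called iron-responsive elements. Binding in a 5′ UTR blocks translation of ferritin and ferroportin, and binding in the 3′ UTR of TFRC stabilises that mRNA. HMOX1 is the inducible heme oxygenase, held down by the heme sensor BACH1 and raised by the stress factor NRF2.

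The elements are shown because they are the known binding sites of the iron regulatory proteins; here only a letter pattern was searched, in 1 transcript per gene, and a match or its absence is no measure of binding. The pattern CNNNNNCAGTGN was searched on the sense strand of the GENCODE 29 transcripts (GRCh38), and the 5 bases on either side of the CAGTGN loop had to pair, with G-T pairs allowed. It was found in the 5′ UTR of FTH1, FTL and SLC40A1 and 4 times in the 3′ UTR of TFRC. Among 12255 tested genes with a coding transcript, 0.131% held it in the 5′ UTR and 0.661% in the 3′ UTR. The sites are given in 30 bases, 5′ to 3′, with the bulged C and the loop in capitals. They lie on the minus strand at chr11:61967576-61967605 (FTH1), the plus strand at chr19:48965332-48965361 (FTL), the minus strand at chr2:189580663-189580692 (SLC40A1) and the minus strand at chr3:196050981-196051010 and chr3:196050465-196050494 (the first and the last of the TFRC sites).
FTH1: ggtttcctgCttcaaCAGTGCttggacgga
FTL: tgtctcttgCttcaaCAGTGTttggacgga
SLC40A1: ttccaacttCagctaCAGTGTtagctaagt
TFRC first: tataattatCggaagCAGTGCcttccataa
TFRC last: agtaattatCgggaaCAGTGTttcccataa

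The mature miR-106a-5p of RefSeq (GRCh38.p14, minus strand of chromosome X, 134170244 to 134170266), its seed in capitals, is shown because the mimics label, taken as given, names it. Its 7-base seed match GCACTTT was in the 3′ UTR of SLC40A1 at positions 1132 and 1166 and in that of none of the other 9 genes, against 21.9% of the tested genes with 1 or more matches and 6.35% with 2 or more. A match is a string of letters, not a measured site. The SLC40A1 matches lie on the minus strand at chr2:189560729-189560758 and chr2:189560695-189560724, with the match in capitals.
miR-106a-5p: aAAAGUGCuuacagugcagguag
SLC40A1 first: aaccgtttatatGCACTTTcatggagactg
SLC40A1 second: acgttgctatgaGCACTTTctttatccttg

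The libraries held 402526 to 429262 FPKM in sum. The 13 mitochondrially encoded genes took 9.67% and 9.49% of the sum in OE, 6.23% and 0.533% in mimics and 9.14% and 8.29% in NC, so that mimics replicate 2 stood apart. All 9 luminal prostate markers, KLK3 and HOXB13 among them, were at 1 FPKM or more on average. Their sum was 965 to 1021 FPKM in OE, 1439 to 1441 in mimics and 1144 to 1241 in NC. The 7 leukocyte markers summed to at most 0.200 FPKM in OE, 0.183 in mimics and 0.280 in NC, and the macrophage markers CD163, MARCO and AIF1 were at 0 in every library. The 4 endothelial markers summed to at most 0.0256 FPKM in OE, 0.0728 in mimics and 0.0473 in NC, with CDH5 and KDR at 0. The 6 fibroblast markers summed to 86.6 to 90.6 FPKM in OE, 108 to 179.6 in mimics and 85.95 to 89.6 in NC, nearly all of it LUM. DCN had 2.28 and 2.60 FPKM in OE, 4.41 and 3.40 in mimics and 2.62 and 3.01 in NC. LUM, DCN, COL1A1 and COL3A1 were higher in both mimics libraries than in NC, and COL1A2 was at or near 0. The part of the luminal and fibroblast marker levels and of the mitochondrial share in the results on mimics was not tested.

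HMOX1 (ENSG00000100292, plus strand of chromosome 22, 35380361 to 35394214 in GENCODE 29, GRCh38) had 13.6 and 13.6 FPKM in OE, 51.3 and 40.6 FPKM in mimics, and 6.14 and 6.08 FPKM in NC. The 3 groups did not overlap, and the order mimics, OE, NC held for each library. The mean in OE was 2.22 times that of NC, and the mean in mimics 7.52 times that of NC. On the log2(FPKM + 0.5) scale, on which limma was run, these were differences of 1.09 (SE 0.13) for OE minus NC and 2.80 (SE 0.13) for mimics minus NC. Between the treated groups the difference was -1.71 (SE 0.13) for OE minus mimics. HMOX1 ranked 13th among 13998 tested rows from the highest change in OE against NC and at place 4 in mimics against NC. In such bulk libraries, more cells with the mRNA and more mRNA per cell cannot be told apart.

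HMOX2, the constitutive heme oxygenase, showed no such order. It had 19.7 and 23.95 FPKM in OE, 20.5 and 22.9 FPKM in mimics and 21.3 and 19.9 FPKM in NC, and the groups overlapped. Its differences were 0.08 for OE minus NC and 0.07 for mimics minus NC (SE 0.12 each). Because FPKM is per length, the 2 enzymes can be set side by side: the ratio of HMOX1 to HMOX2 was 0.690 and 0.566 in OE, 2.51 and 1.77 in mimics and 0.289 and 0.306 in NC. HMOX1 was thus the less abundant mRNA in every OE and NC library and the more abundant one in both mimics libraries. An exon of HMOX2 overlaps NMRAL1 on the opposite strand, and the authors' use of strand is not given in the sources used here.

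**Figure D1:**
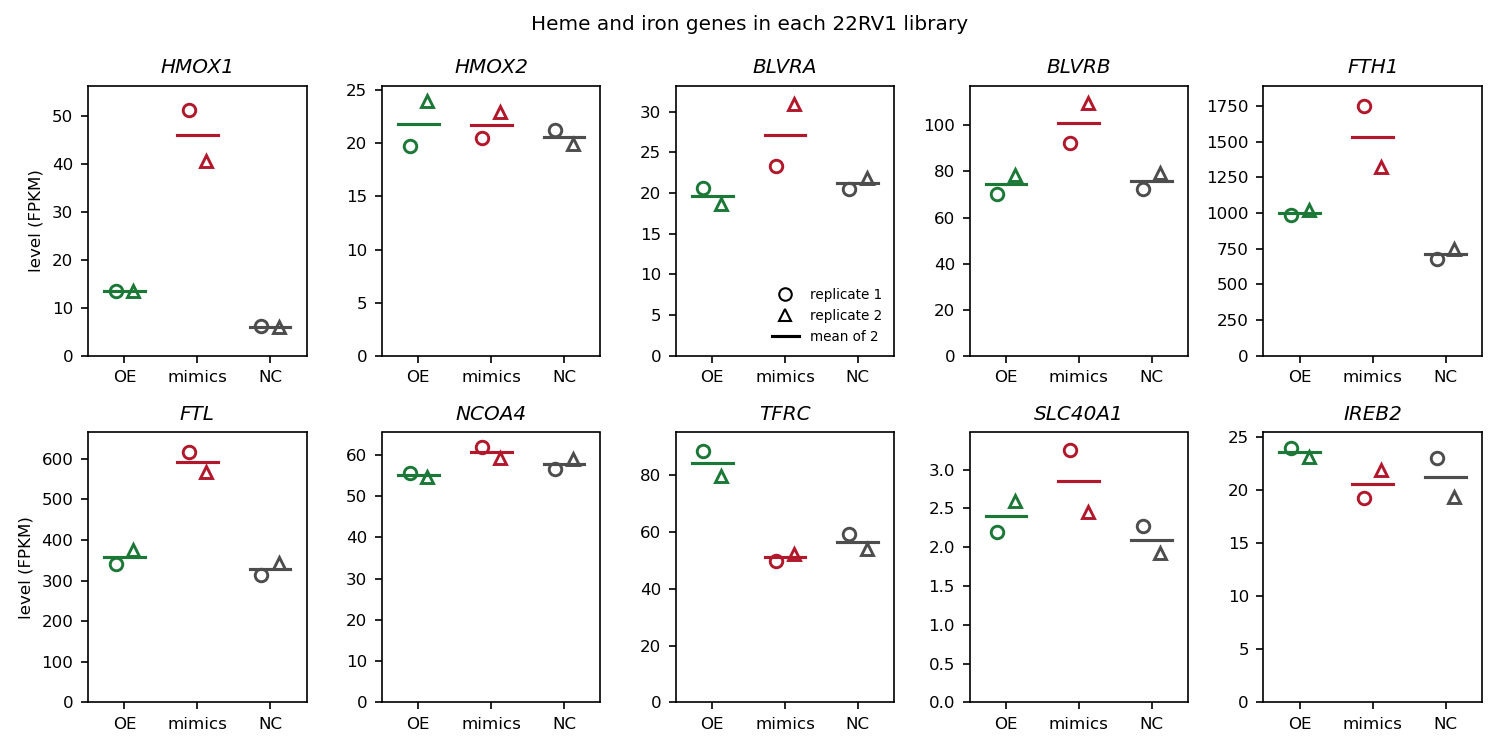
Level in FPKM (linear axes from 0) of each of the 10 genes in OE, mimics and NC; circles are replicate 1, triangles replicate 2 and lines the mean of 2 libraries. HMOX1 separates all 3 groups, at 13.6 FPKM in OE, 40.6 and 51.3 in mimics and 6.08 and 6.14 in NC, whereas HMOX2 stays between 19.7 and 23.95 FPKM in all 6 libraries.

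BLVRA acts on the product of both heme oxygenases. BLVRA, the main adult enzyme, had 20.6 and 18.7 FPKM in OE, 23.3 and 30.9 FPKM in mimics and 20.5 and 21.8 FPKM in NC. Both mimics libraries lay above NC, but by unequal amounts: 0.13 and 0.54 on the log2 scale against the NC mean. BLVRB, a second biliverdin reductase that also works as a flavin reductase, had 70.4 and 78.5 FPKM in OE, 92.1 and 109.5 FPKM in mimics and 72.3 and 79.4 FPKM in NC. Its mimics libraries were above NC by 0.28 and 0.53, the larger value again in mimics replicate 2, the library low in mitochondrially encoded genes. The fitted differences for mimics minus NC were 0.33 (SE 0.14) for BLVRA and 0.40 (SE 0.12) for BLVRB, and neither passed the threshold of the test across all rows. Without mimics replicate 1 both passed, at 0.54 and 0.53, and without mimics replicate 2 neither did, at 0.13 and 0.28. With all 6 libraries, BLVRB also passed in mimics against NC under quantile normalization (0.45) and with a replicate block (0.40). In OE both reductases overlapped NC, with differences of -0.11 and -0.03.

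Ferritin mRNAs were among the most abundant of the cell. FTH1, the heavy chain that oxidises iron as it enters the shell, had 986 and 1021 FPKM in OE, 1746 and 1323 FPKM in mimics and 680.0 and 746 FPKM in NC. As with HMOX1, the groups did not overlap and the order was mimics, OE, NC. FTL, the light chain that helps mineralise the core, had 340.3 and 376 FPKM in OE, 618 and 567 FPKM in mimics and 315 and 343 FPKM in NC. FTL in OE overlapped NC, while mimics lay above both other groups. The differences for mimics minus NC were 1.09 (SE 0.18) for FTH1 and 0.85 (SE 0.13) for FTL, and those for OE minus NC 0.49 and 0.12 with the same errors. FTH1 and FTL together took 0.322% and 0.331% of the FPKM sum in OE, 0.551% and 0.469% in mimics and 0.246% and 0.259% in NC.

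FTH1 differed from NC by more than FTL in every treated library. The ratio of FTH1 to FTL was 2.90 and 2.71 in OE, 2.83 and 2.34 in mimics and 2.16 and 2.18 in NC, so that all 4 treated libraries lay above both NC libraries. Assignment of ferritin reads is uncertain: GENCODE 29 names 25 pseudogenes of FTH1 and 16 of FTL, and an exon of FTH1 overlaps BEST1 on the opposite strand. With libraries rescaled without the mitochondrially encoded genes, the differences for mimics minus NC were 0.998 for FTH1, 0.75 for FTL and 2.71 for HMOX1. Taken alone against the NC mean, mimics replicate 1 gave 1.29 for FTH1, 0.91 for FTL and 2.97 for HMOX1, and mimics replicate 2 gave 0.89, 0.79 and 2.64.

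NCOA4, the receptor that delivers ferritin to autophagy so that its iron is freed, varied little. It had 55.6 and 54.6 FPKM in OE, 61.9 and 59.3 FPKM in mimics and 56.6 and 58.9 FPKM in NC. The OE libraries lay just under NC and the mimics libraries just above, with differences of -0.07 and 0.07 (SE 0.09 each). With libraries rescaled without the mitochondrially encoded genes, the difference for mimics minus NC turned to -0.02. GENCODE 29 names 3 pseudogenes of NCOA4.

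TFRC did not follow the order of HMOX1. It had 88.7 and 79.9 FPKM in OE, 49.9 and 52.4 FPKM in mimics and 59.3 and 53.97 FPKM in NC. Both OE libraries lay above all others, and both mimics libraries lay under NC. The differences were 0.57 for OE minus NC, -0.15 for mimics minus NC and 0.71 for OE minus mimics (SE 0.10 each). The difference of OE from NC did not pass the threshold with all 6 libraries, but did so without mimics replicate 1 or without mimics replicate 2, with 0.57 in each case. The ratio of FTH1 to TFRC was 11.1 and 12.8 in OE, 35.0 and 25.2 in mimics and 11.5 and 13.8 in NC. In OE both mRNAs lay above NC and the ratio overlapped that of NC, while in mimics FTH1 lay above and TFRC below NC.

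**Figure D2:**
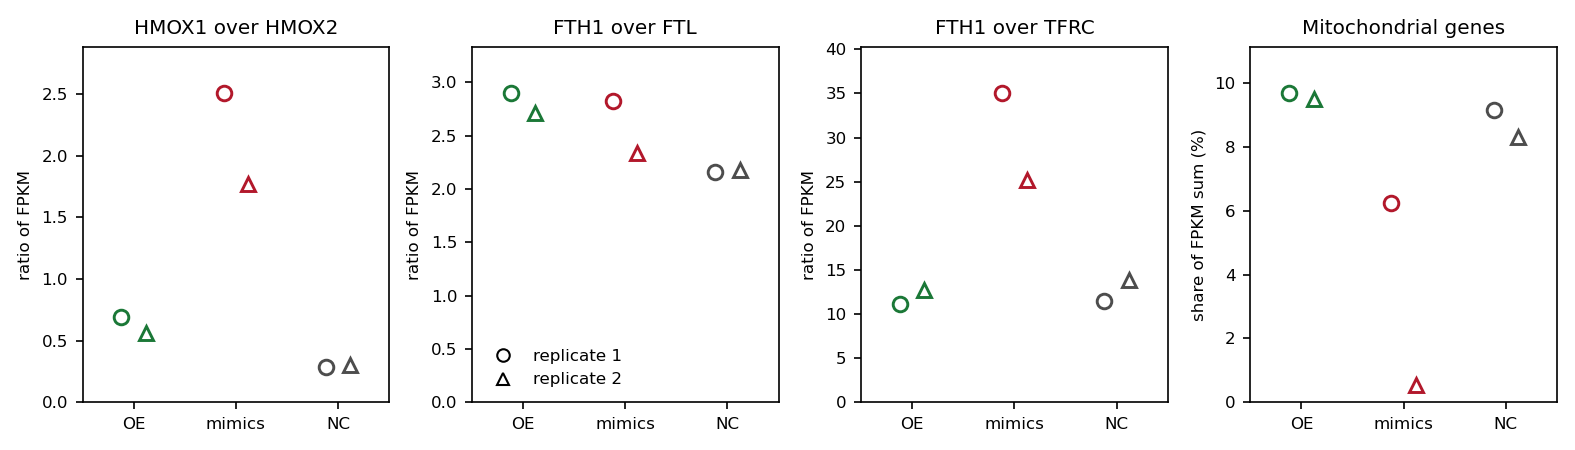
Ratios of FPKM within each library for HMOX1 over HMOX2, FTH1 over FTL and FTH1 over TFRC, and the percentage of the FPKM sum in the 13 mitochondrially encoded genes, in OE, mimics and NC; circles are replicate 1 and triangles replicate 2. FTH1 over TFRC is 25.2 and 35.0 in mimics and 11.1 to 13.8 in the other 4 libraries, and mimics replicate 2 has 0.533% mitochondrially encoded FPKM.

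SLC40A1 (ferroportin), the iron exporter with both seed matches shown above, was the least abundant of the 10 mRNAs. It had 2.20 and 2.60 FPKM in OE, 3.25 and 2.46 FPKM in mimics and 2.27 and 1.93 FPKM in NC. OE overlapped NC, and both mimics libraries were above NC, mimics replicate 2 by 0.19 and mimics replicate 1 by 0.53. The difference for mimics minus NC was 0.36 (SE 0.18) and did not pass. IREB2, which encodes iron regulatory protein 2, had 24.0 and 23.1 FPKM in OE, 19.3 and 21.9 FPKM in mimics and 23.1 and 19.4 FPKM in NC. Its mimics and NC libraries overlapped, and its differences from NC were 0.15 in OE and -0.04 in mimics (SE 0.12 each).

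**Figure D3:**
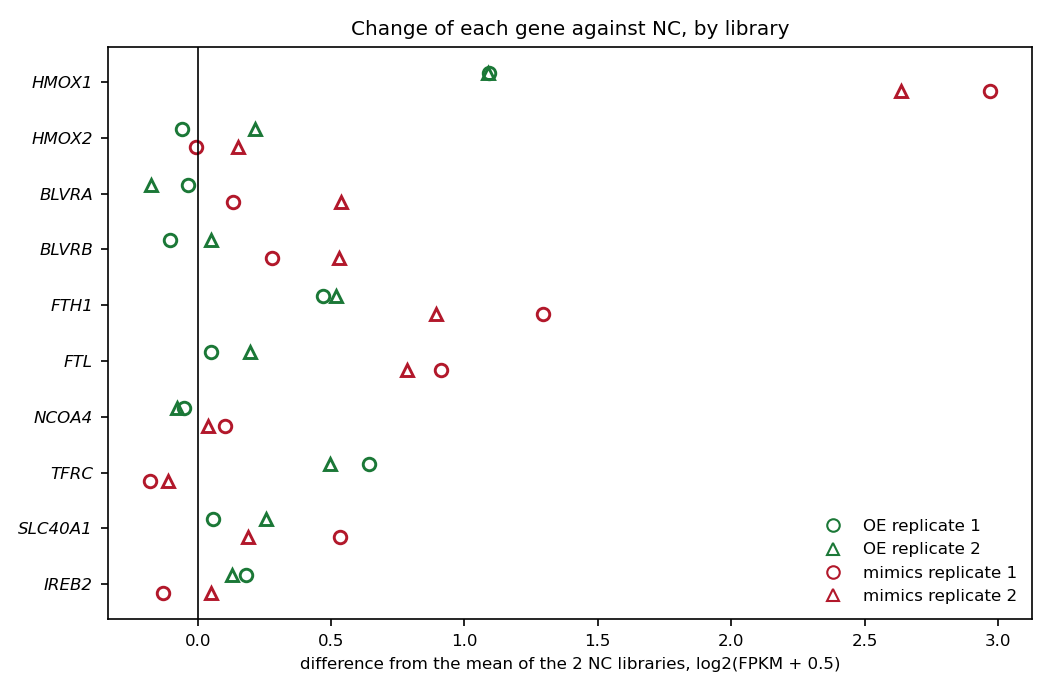
Difference of each OE and mimics library from the mean of the 2 NC libraries on the log2(FPKM + 0.5) scale for the 10 genes, with circles for replicate 1 and triangles for replicate 2. HMOX1 lies at 1.09 in both OE libraries and at 2.97 and 2.64 in mimics, FTH1 and FTL follow at 0.79 to 1.29 in mimics, and TFRC lies at 0.49 and 0.64 in OE and under 0 in mimics.

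All 10 genes passed the filter on low values, so none was left out. By limma at a Benjamini-Hochberg adjusted p under 0.05 across 13998 rows, 1 of the 10 (HMOX1) was called in OE against NC, where 0.257% of all rows were called, 0.0143% as higher and 0.243% as lower. In mimics against NC 3 of the 10 (HMOX1, FTH1 and FTL, all higher) were called, beside 8% of all rows, 4.29% as higher and 3.71% as lower. With libraries rescaled without the mitochondrially encoded genes, the split of all called rows turned from 600 higher and 520 lower to 405 higher and 795 lower, and the 3 calls held. In OE against mimics 3 were called, HMOX1 and FTL lower in OE and TFRC higher, beside 7.84% of all rows, 2.52% as higher and 5.32% as lower. That split, 353 higher and 745 lower, became 557 higher and 509 lower with the same rescaling, and 573 higher and 751 lower with quantile normalization; the 3 calls held under both. Since the set was chosen with these comparisons in view, nothing is read from those shares. In OE against NC the libraries did not overlap for 5 of the 10, 4 above and 1 below, beside 41.9% of all rows, 15.4% above and 26.5% below. In mimics against NC this held for 8, 7 above and 1 below, beside 52.9% of all rows, 27.2% above and 25.6% below. In OE against mimics it held for 8, 2 above and 6 below, beside 55.7% of all rows, 25.2% above and 30.5% below. The median difference of the 10 genes was 0.14 in OE against NC and 0.35 in mimics against NC, and that of all tested rows -0.02 and -0.0021. Both comparisons use the same 2 NC libraries, so a shift in NC would move both. The call of HMOX1 in OE against NC was lost when any single OE or NC library was left out, with differences of 1.09 without OE replicate 1, 1.09 without OE replicate 2, 1.10 without NC replicate 1 and 1.08 without NC replicate 2. The calls of FTH1 and FTL in mimics were lost without NC replicate 1 (1.03 and 0.79) and without NC replicate 2 (1.16 and 0.91). In OE against mimics the call of FTL was lost without OE replicate 1 (-0.65) and without OE replicate 2 (-0.80), and that of TFRC without OE replicate 1 (0.64). With no filter on low values these calls were lost too, and of the 10 genes only HMOX1 in mimics against NC and in OE against mimics was still called. FTH1 was called in OE against mimics without mimics replicate 2 (-0.80) and with quantile normalization (-0.52). BLVRB was called there with quantile normalization, and BLVRA (-0.64) and BLVRB (-0.56) without mimics replicate 1.

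Around these genes, 83 further symbols stood in 10 lists. Most lists covered the synthesis, transport and sensing of heme and the uptake, export, sensing and mitochondrial use of iron. Another list held 11 targets of NRF2 and BACH1 outside heme and iron. Of the 83 symbols, 71 passed the filter. By limma, none was called in OE against NC, where 0.257% of all rows were called. In mimics against NC, 6 of the 71 rose and 3 fell, beside 4.29% and 3.71% of all rows. The NRF2 and BACH1 targets outside heme and iron gave 4 of these rises and 1 of these falls. In OE against mimics 2 of the 71 were higher and 4 lower in OE, beside 2.52% and 5.32% of all rows. The same targets gave 2 of the higher and 1 of the lower genes. An unadjusted p under 0.05 was found for 8 of the 71 in OE against NC, 18 in mimics against NC and 18 in OE against mimics, beside 6.48%, 25.8% and 26.5% of all rows. The median difference of the 71 was -0.0060 in OE against NC and 0.0032 in mimics against NC, beside -0.02 and -0.0021 for all rows. Except for the NQO1 rise and the PGD fall in mimics and the CP, NQO1 and SLC7A11 differences between OE and mimics, each of the list calls below was lost when only the 4 libraries compared were fitted, and with no filter on low values all were lost.

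None of the 8 tested enzymes of heme synthesis was called by limma in any comparison. An unadjusted p under 0.05 was found for 0 in OE against NC, 2 in mimics against NC and 2 in OE against mimics. The shares of all rows were 6.48%, 25.8% and 26.5%. The median differences of the enzymes were -0.01 in OE and 0.0073 in mimics against NC. UROS, which closes the ring, was 36.1 ± 2.53 FPKM in OE, 44.2 ± 5.65 FPKM in mimics and 34.98 ± 1.63 FPKM in NC (SD, n = 2 each; mimics minus NC 0.33, limma adjusted p = 0.122).

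Among 11 genes of heme transport and binding, 2 rose and 1 fell in mimics against NC, beside 4.29% and 3.71% of all rows, and 5 had an unadjusted p under 0.05, beside 25.8% of all rows. ABCG2, an exporter of porphyrins, heme and drugs, rose to 3.29 and 3.41 FPKM in mimics, against 1.65 and 1.98 FPKM in NC (0.73, SE 0.15, limma adjusted p = 0.0244). It had 3.18 and 3.19 FPKM in OE, a difference of 0.67 from NC that did not pass (limma adjusted p = 0.265). HEBP1, a cytosolic heme-binding protein, rose to 25.8 and 24.97 FPKM in mimics, against 17.97 and 19.1 FPKM in NC (0.45, limma adjusted p = 0.0302). It was lower in OE than in mimics, with 18.9 and 18.5 FPKM in OE (-0.43, limma adjusted p = 0.0334), and an exon overlaps an antisense gene. ABCB6, a porphyrin transporter, fell to 17.6 and 14.9 FPKM in mimics, against 22.4 and 27.2 FPKM in NC (-0.59, limma adjusted p = 0.0399), and shares exons with another gene on its strand. The ABCG2 rise and both HEBP1 calls were lost without any single OE or NC library, and the ABCB6 fall without any of these or mimics replicate 2. The HEBP1 calls were also lost with libraries rescaled without the mitochondrially encoded genes, and the ABCB6 fall under median-of-ratios scaling, quantile normalization and the replicate block. With no intensity trend in the fit, the HEBP1 calls and the ABCB6 fall were lost.

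None of 9 heme-sensing regulators and partners was called by limma in any comparison. In OE against mimics 1 had an unadjusted p under 0.05, beside 26.5% of all rows. BACH1, the heme-sensing repressor of HMOX1, had 4.15 and 3.59 FPKM in OE, 4.42 and 3.44 FPKM in mimics and 3.77 and 2.93 FPKM in NC. NFE2L2, which encodes NRF2, had 16.2 and 13.1 FPKM in OE, 16.6 and 15.5 FPKM in mimics and 16.2 and 13.7 FPKM in NC. Groups overlapped for both. EIF2AK1, the heme-regulated kinase that slows translation, differed by -0.20 and MAFF, a small MAF partner of BACH1 and NRF2, by 0.31 in mimics against NC (limma adjusted p = 0.265 and 0.287).

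Of the 10 tested targets of NRF2 and BACH1 outside heme and iron, 4 rose and 1 fell in mimics against NC, beside 4.29% and 3.71% of all rows. None was called in OE against NC, where 5 had an unadjusted p under 0.05, beside 6.48% of all rows. The median difference was -0.03 in mimics and 0.34 in OE. NQO1, a quinone reductase, rose to 111.7 and 86.2 FPKM in mimics, against 41.6 and 41.3 FPKM in NC (1.23, SE 0.13, limma adjusted p = 0.00223), and had 63.4 and 59.1 FPKM in OE. OSGIN1 (0.67, limma adjusted p = 0.0386), the thioredoxin reductase TXNRD1 (0.49, 0.0245) and the sulfiredoxin SRXN1 (0.41, 0.0401) rose too, and PGD of the pentose phosphate pathway fell (-0.56, 0.0154). Between the treated groups the directions were mixed. SLC7A11, the cystine importer, had 7.65 and 6.68 FPKM in OE, against 2.68 and 3.83 FPKM in mimics (OE minus mimics 1.04, limma adjusted p = 0.0178), and GCLM was also higher in OE (0.58, 0.0263), while NQO1 was lower in OE (-0.68, 0.0183). Exons of NQO1 and SLC7A11 overlap an antisense gene, and those of OSGIN1 and SRXN1 a gene on the same strand. Without single libraries the NQO1 rise in mimics was kept in each case, TXNRD1 and SRXN1 were lost without any OE or NC library, OSGIN1 without these or mimics replicate 1, and PGD without either NC library. With libraries rescaled without the mitochondrially encoded genes, the SRXN1 and OSGIN1 rises were lost. The OSGIN1 rise was also lost under quantile normalization and the replicate block, and the TXNRD1 and SRXN1 rises with no intensity trend. In OE against mimics SLC7A11, GCLM and NQO1 were lost without either OE library, and GCLM also without either NC library.

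On the iron side, 1 of 6 tested genes of uptake and reduction was called, as lower in mimics against NC, beside 3.71% of all rows. TFR2, the second transferrin receptor, fell to 0.953 and 1.34 FPKM in mimics, against 2.19 and 2.72 FPKM in NC (-0.85, limma adjusted p = 0.0319), and had 1.28 and 1.19 FPKM in OE (-0.76, limma adjusted p = 0.321). The fall in mimics was lost without any OE or NC library or mimics replicate 1. Among the listed genes of iron export and its control, only CP, the ferroxidase ceruloplasmin, and BMP6 passed the filter. CP had 1.49 and 1.79 FPKM in OE, against 4.03 and 3.14 FPKM in mimics (OE minus mimics -0.93, limma adjusted p = 0.0180), and was lost without either OE library. It has an exon over HPS3 on the other strand. UGT1A1, which conjugates bilirubin, had 0.602 and 0.306 FPKM in OE, against 3.86 and 1.55 FPKM in mimics (-1.66, limma adjusted p = 0.0202). It shares exons with 8 other UGT1A genes, so its reads cannot be assigned with certainty, and the call was lost without any OE or NC library.

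None of 4 genes of iron sensing and delivery, of 16 genes of mitochondrial iron use and iron-sulfur assembly, or of 4 other mRNAs with iron-responsive elements was called by limma in any comparison. An unadjusted p under 0.05 was found for 0 of these in OE against NC and for 2 mitochondrial genes in mimics against NC. In OE against mimics it was found for 3 mitochondrial genes and 1 of sensing and delivery. The shares of all rows in these comparisons were 6.48%, 25.8% and 26.5%. ACO1, which encodes iron regulatory protein 1, had 5.12 and 4.55 FPKM in OE, 7.08 and 4.73 FPKM in mimics and 4.54 and 5.71 FPKM in NC, and was less abundant than IREB2 in each library, by 2.72 to 5.09 times. The iron chaperone PCBP1 differed by -0.25 and FBXL5, which marks IREB2 for degradation, by 0.20 in mimics against NC (limma adjusted p = 0.240 and 0.283). LYRM4, a small partner of the cysteine desulfurase, came nearest to a rise in mimics (0.66, limma adjusted p = 0.0530), and SLC25A28, a mitochondrial iron importer, differed by -0.33 (0.171). CDC14A, whose mRNA carries such an element in its 3′ UTR, differed by -0.19 (0.379).

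**Figure D4:**
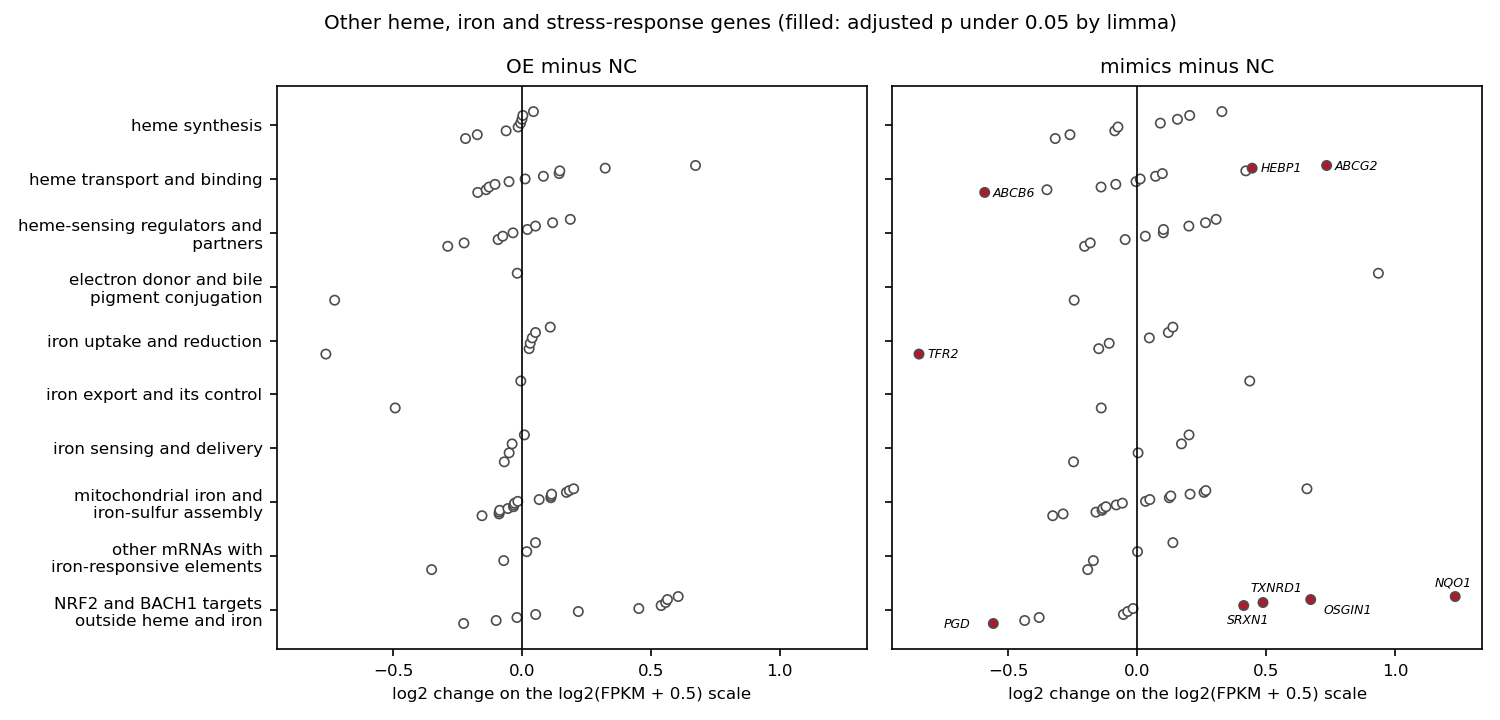
Change of each tested gene of the 10 lists in OE minus NC (left) and mimics minus NC (right) on the log2(FPKM + 0.5) scale, one circle per gene; filled circles passed limma at an adjusted p under 0.05. No gene is filled for OE, and ABCG2, HEBP1, ABCB6, TFR2 and 5 targets of NRF2 and BACH1 are filled for mimics.

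The annotated genes whose pattern over the 6 libraries was nearest to HMOX1 were found by Euclidean distance between centred log2(FPKM + 0.5) profiles. From the nearest on, they were the stress cytokine GDF15 (distance 0.950), NDUFA4L2, a hypoxia-induced mitochondrial protein (1.10), CDKN1A, the cell cycle inhibitor p21 (1.13), the secreted OLFM2 (1.147), the embryonic globin HBE1 (1.149) and the lysosomal glycoprotein GPNMB (1.22). By this distance none of the other 9 heme and iron genes was as near, FTH1 being closest at 1.74 and TFRC farthest at 3.16. The distance counts the size of a change as well as its shape. A gene with a smaller change, such as FTH1, therefore lies farther even with the same order of groups. FTH1 had the order mimics, OE, NC, as HMOX1 did, whereas OLFM2 and GPNMB in OE overlapped NC. GDF15 had 58.96 and 67.9 FPKM in OE, 209.5 and 208 FPKM in mimics and 48.1 and 54.03 FPKM in NC. HBE1 had 4.25 and 5.06 FPKM in OE, 9.87 and 12.2 FPKM in mimics and 3.04 and 2.74 FPKM in NC, and shares exons with 3 other genes. All 6 lay higher in mimics than in the other 2 groups, and none was as far above NC in OE as HMOX1. Since the 6 libraries form 3 groups, such likeness rests mainly on the group means.

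**Figure D5:**
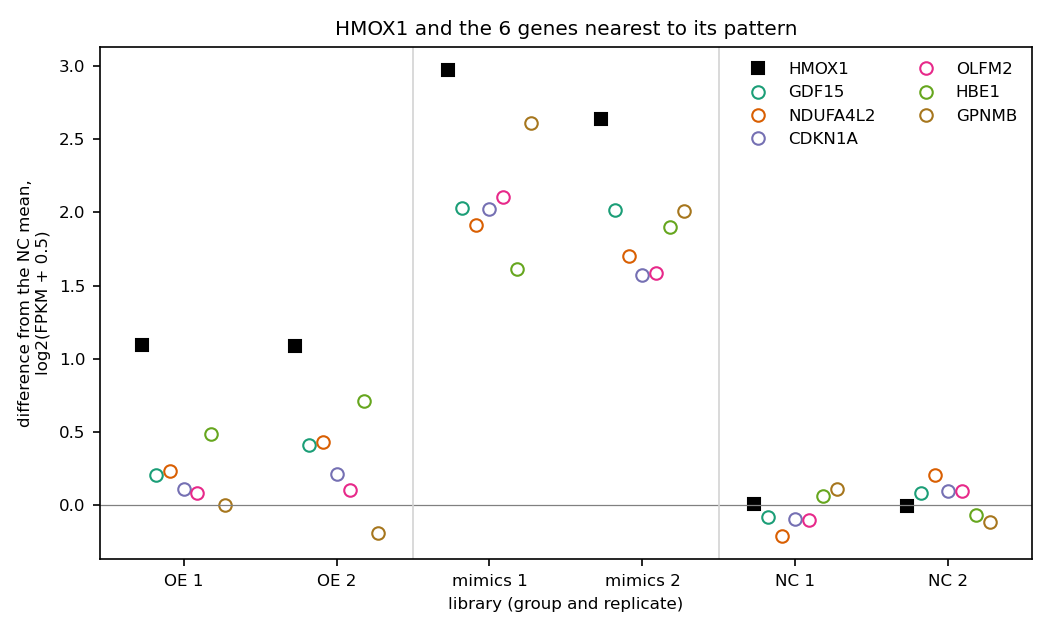
Difference from the NC mean on the log2(FPKM + 0.5) scale for HMOX1 (filled squares) and the 6 genes nearest to it by Euclidean distance (circles) in each library. In OE HMOX1 lies at 1.09 in both libraries, above each of the 6 genes, and in mimics at 2.97 and 2.64.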

How the data were processed

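RNA of 22RV1 cells was profiled in 2 OE, 2 mimics and 2 NC libraries. Per the labels' protocols, TRIzol was used for extraction and a Hieff NGS kit for mRNA libraries. The submitters' processing notes name HISAT2 2.0.4 and GRCh38. What counted the reads, on which annotation and with what strand setting, is not given in the sources used here. In FPKM, the authors deposited values for 24872 rows, of which 19974 have an Ensembl ID. Depth cannot be read from FPKM, so precision rests on the spread between replicates, moderated as described above.

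The 13998 rows that averaged 0.5 FPKM or more were tested on log2(FPKM + 0.5) with limma 3.58.1 in R 4.3.3, all 6 libraries in 1 model, with an intensity trend, two-sided, Benjamini-Hochberg over all rows. The fold scale understates low genes. An exact permutation test of 2 against 2 cannot go below 0.333. The script was tested on simulated data. The members and lists were chosen with earlier results of these data known. From each list the text names up to 2 passing genes per comparison with the largest change, otherwise the 2 with the smallest p in mimics against NC. TXNRD1, SRXN1, PGD, GCLM, BACH1, NFE2L2, ACO1, BMP6 and ME1 were named after their values were seen. Some genes that the rule names are not reported here. Alternatives were 2 other pseudocounts, 2 filters, 3 scalings, 4 libraries only, a replicate block, no trend and leaving out each library.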

Additional observations from a re-analysis of the deposited data

How the results depend on the processing

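Under 16 alternative settings, the 30 changes of the 10 genes gave 480 values. Of these, 470 moved by less than the spread between replicates, and none of the called ones changed sign. For most settings such a small move was fixed in advance. The filters, only the 4 libraries compared, the replicate block and no trend leave a gene's difference unchanged. Leaving out 1 library leaves it unchanged or moves it by less than the spread between replicates. Only the pseudocounts and scalings could move a value further, so the 470 is no measure of robustness. HMOX1 stayed past the threshold in mimics against NC and in OE against mimics under all 16 settings, and in OE against NC under 10. Since HMOX1 was chosen for its rise in these same libraries, nothing is read from its passing. Rows called in OE against NC numbered 36, but 7 with no filter on low values, 119 with only the 4 libraries compared and 5 to 120 with 1 library left out (5 to 8 without any OE or NC library, 120 without either mimics library). In mimics against NC they numbered 1120, but 97 with no filter, 601 with only the 4 libraries compared and 66 to 3027 with 1 library left out (66 and 162 without NC replicate 1 and 2, 599 and 597 without OE replicate 1 and 2, 3027 without mimics replicate 2). In OE against mimics they numbered 1098, but 137 with no filter, 641 with only the 4 libraries compared and 136 to 2774 with 1 library left out (136 and 180 without OE replicate 1 and 2, 626 without either NC library, 2774 without mimics replicate 2). Rescaling without mitochondrially encoded genes turned the split in mimics against NC from 600 higher and 520 lower into 405 higher and 795 lower, and in OE against mimics from 353 higher and 745 lower into 557 higher and 509 lower. It moved the median of all rows in mimics against NC to -0.09. The cause of the other shifts was not tested.

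Same-numbered libraries deviated together at a correlation of 0.153 for OE and NC, 0.0194 for OE and mimics and -0.0268 for mimics and NC, and the labels give the numbers no meaning. With the replicate block, 9 rows were called in OE against NC, 938 in mimics against NC and 938 in OE against mimics. HMOX1 then no longer passed in OE against NC, and BLVRB passed in mimics against NC and in OE against mimics. Of 960 counts of list members called, 874 stayed within 1.5 times. Most of the counts they were set against were 0, and a 0 that stayed 0 was taken as unmoved. The 874 is therefore no measure of robustness either.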

Other observations

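Globin mRNAs were present in these epithelial cells. Of 6 erythroid markers, HBA1 and HBA2, near-identical alpha-globin genes whose reads can be shared, were above 1 FPKM on average, while HBB, SLC4A1 and ALAS2 were among the other 4, all at or near 0. HBA1 had 50.9 and 55.1 FPKM in OE, 54.5 and 83.7 FPKM in mimics and 36.4 and 43.6 FPKM in NC. HBA2 had 61.4 and 61.5 FPKM in OE, 65.2 and 96.2 FPKM in mimics and 51.3 and 50.9 FPKM in NC. Both were higher in every OE and mimics library than in NC, and highest in mimics replicate 2. They were singled out after their values were seen, and these differences were not tested.

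ME1, a further target of NRF2, did not pass the filter on low values and averaged 0.0953 FPKM in OE, 0.108 FPKM in mimics and 0.864 FPKM in NC.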
